A study of Mus musculus with 15 samples.

Results

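The 10 genes described here belong to the immediate early and heat shock responses and were followed across frozen sections of mouse embryos: Fos, Fosb, Jun, Junb, Egr1, Atf3, Ier2, Dusp1, Hspa1a and Hspa1b. They were chosen by name and are 10 of the 30534 features counted. The sections were not dissociated: barcodes were flowed over the tissue through parallel microfluidic channels in both directions, and each crossing formed a pixel 10, 25 or 50 µm wide with its own transcript counts. There were 11 transcript libraries of whole-embryo tissue without a stated treatment or genotype: at embryonic day 10 (E10) 2 libraries of 10 µm pixels, 1 of 25 µm and 3 of 50 µm; at day 11 (E11) 2 of 10 µm and 2 of 25 µm; and at day 12 (E12) 1 of 50 µm. Neither the embryo nor the region a section was cut from is labelled, so p-values measure the spread between libraries, which may be partly technical, and 2 groups hold a single library that was assumed to vary like the others. A grid covers part of an embryo, and the tissues within it differed: summed heart muscle markers ranged from 18.9 to 6105 CPM (counts in tissue pixels, with each library brought to 1e6) and liver markers from 8.25 to 3817.

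Immediate early genes are transcribed within minutes of a growth factor, wound or stress signal, without new protein synthesis. Fos, Fosb, Jun and Junb encode subunits of the AP-1 transcription factor, Egr1 a zinc finger transcription factor, Atf3 a stress-induced factor of the ATF/CREB family, Ier2 a small nuclear protein, and Dusp1 a phosphatase that switches off MAP kinases. Hspa1a and Hspa1b encode the inducible HSP70 chaperones, which heat shock factor 1 switches on when proteins misfold. The enzymatic digestion used to make single-cell suspensions is known to induce many of these genes, which is why their level in tissue that was frozen whole is of use as a reference.

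RefSeq promoter windows, 250 bases before to 50 bases after the start of transcription on build GRCm38.p6, were matched for 8 of the 10 genes, all but Egr1 and Ier2. The 3 windows shown belong to the gene with the clearest difference between stages (Dusp1), the gene with the most counts (Jun) and an inducible HSP70 gene (Hspa1a). All lie on the minus strand and read 5′ to 3′, Dusp1 at chr17:26508423-26508722, Jun at chr4:95052173-95052472 and Hspa1a at chr17:34972107-34972406. Capitals mark the cAMP response element TGACGTCA in Dusp1 and the paired heat shock element letters GAANNTTC in Jun and Hspa1a.
Dusp1: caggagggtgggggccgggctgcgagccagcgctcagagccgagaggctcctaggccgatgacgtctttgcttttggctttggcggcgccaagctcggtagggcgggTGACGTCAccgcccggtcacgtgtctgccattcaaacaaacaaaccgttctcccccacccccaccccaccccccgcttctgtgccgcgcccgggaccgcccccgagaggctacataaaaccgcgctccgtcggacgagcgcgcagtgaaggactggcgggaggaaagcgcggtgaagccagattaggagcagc
Jun: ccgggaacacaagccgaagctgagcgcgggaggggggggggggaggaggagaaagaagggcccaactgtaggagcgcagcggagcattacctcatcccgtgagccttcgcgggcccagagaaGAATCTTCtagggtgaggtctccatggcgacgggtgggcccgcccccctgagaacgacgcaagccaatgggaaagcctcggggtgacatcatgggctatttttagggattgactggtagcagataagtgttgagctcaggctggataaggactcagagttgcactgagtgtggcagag
Hspa1a: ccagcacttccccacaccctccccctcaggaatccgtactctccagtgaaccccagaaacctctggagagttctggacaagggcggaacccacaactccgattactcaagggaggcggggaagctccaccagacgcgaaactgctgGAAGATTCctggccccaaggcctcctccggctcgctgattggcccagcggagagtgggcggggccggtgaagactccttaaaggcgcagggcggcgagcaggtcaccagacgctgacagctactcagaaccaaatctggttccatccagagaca

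Both strands of the 8 windows were searched. GAANNTTC was present in Jun, Hspa1a and Hspa1b, against 7.86% of the 32851 RefSeq windows of the same length. TGACGTCA was present in Dusp1 alone, against 1.79% of windows. TATAAA was found in Fos and Junb (13.6% of windows). Neither the AP-1 site TGACTCA (5.20% of windows) nor the CArG box to which serum response factor binds (1.63%) was found in any of the 8. These matches describe letters in 300 bases and not bound sites.

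Jun and Ier2 made up most of the signal of the 10 genes in every library, and the classical genes Fos, Fosb, Hspa1a and Hspa1b were close to the limit of detection. Jun had 3675 counts over all tissue pixels, Ier2 2164, Dusp1 557, Egr1 350, Junb 181, Atf3 147, Hspa1b 101, Fos 89, Hspa1a 51 and Fosb 39. Per kilobase of exon, median levels over libraries were 19.4 CPM for Ier2, 15.6 for Jun, 1.7998 for Dusp1, 1.13 for Junb, 1.01 for Atf3 and 0.629 for Egr1. Fos (0.420), Hspa1b (0.384), Hspa1a (0.222) and Fosb (0) were lower still. In this order each gene's range over libraries overlapped that of its neighbour, except between Jun and Dusp1. Without division by length the medians were 49.9 CPM for Jun and 29.5 for Ier2, the reverse order. Whether counts scale with exon length in these libraries was not tested. The libraries held 1563489 to 11998765 counts in 829 to 2271 tissue pixels, so 3 counts, the limit that a count of 0 allows, correspond to between 0.25 and 1.92 CPM. All such limits and intervals cover counting error only.

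**Figure D1:**
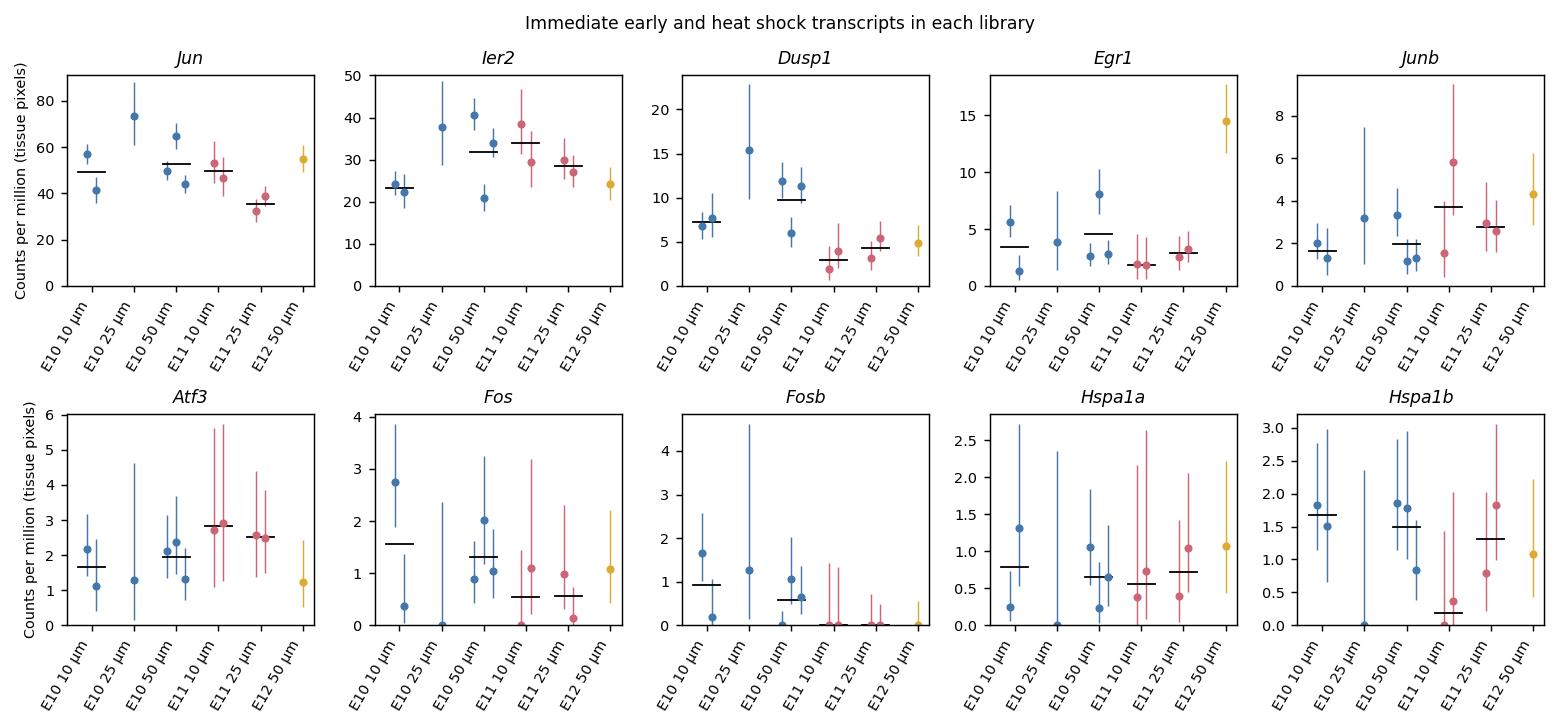
CPM of the 10 genes (vertical axes, each from 0) in each library, by stage and pixel width. Points are libraries with 95% Poisson intervals, which cover counting error only, and black lines are means of groups with more than 1 library. Dusp1 lay between 5.96 and 15.4 CPM in the 6 E10 libraries and between 1.95 and 5.47 in the 5 later ones.

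Jun was seen in every library within a narrow range. It measured 57.1 and 41.3 CPM in the E10 libraries of 10 µm, 73.6 in that of 25 µm, and 49.9, 64.6 and 43.9 in those of 50 µm. At E11 it measured 52.9 and 46.7 CPM at 10 µm and 32.4 and 38.7 at 25 µm, and at E12 54.8. The lowest values were the pair of E11 libraries of 25 µm and the highest the E10 library of 25 µm, and E10 and later libraries overlapped. Over all 11 libraries the mean was 50.5 ± 11.9 CPM (SD, n = 11).

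Ier2 varied as little. Its levels were 24.3 and 22.3 CPM in the E10 libraries of 10 µm, 37.7 at 25 µm, and 40.7, 20.9 and 33.9 at 50 µm. The E11 values were 38.5 and 29.5 CPM at 10 µm and 30.002 and 27.1 at 25 µm, and the E12 value was 24.2. The 3 E10 libraries of 50 µm alone spanned the whole range of the gene, from 20.9 to 40.7 CPM.

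Dusp1 stood at 6.75 and 7.74 CPM in the E10 libraries of 10 µm, 15.4 at 25 µm, and 11.9, 5.96 and 11.3 at 50 µm. The later libraries measured 1.95 and 4.01 CPM (E11, 10 µm), 3.16 and 5.47 (E11, 25 µm) and 4.92 (E12). Every E10 library was thus above every later one, as for 2.42% of the 18233 genes tested.

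Egr1 was the gene with a single high library. It measured 5.58 and 1.32 CPM (E10, 10 µm), 3.84 (E10, 25 µm), 2.64, 8.10 and 2.82 (E10, 50 µm), 1.95 and 1.82 (E11, 10 µm), 2.57 and 3.26 (E11, 25 µm) and 14.5 at E12 (95% Poisson interval 11.7 to 17.7, from 94 counts). Those 94 counts lay in 90 pixels with at most 4 in a pixel, so no single pixel made the level.

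Junb ranged from 1.19 to 5.83 CPM (median 2.60) and Atf3 from 1.13 to 2.92 (median 2.17), both with counts in all 11 libraries. Fos ranged from 0 to 2.75 CPM. Of its 89 counts, 33 lay in replicate 1 of E10 at 10 µm, the library with the most counts of all genes. The 5 later libraries together held 16, but their counts of all genes were also fewer than those of the 6 E10 libraries. In CPM, Fos measured 0 to 2.75 at E10 (mean 1.18 ± 1.03, SD, n = 6). At the later stages it measured 0 to 1.09 CPM (mean 0.658 ± 0.544, SD, n = 5), so the stages overlapped. Fosb had 39 counts in the 6 E10 libraries and 0 in the 5 libraries of E11 and E12. The pooled E10 level of Fosb was 6.48-fold above a floor of 3 counts over the later libraries together. This ratio leaves out the spread between E10 libraries and is not a lower limit of the difference. The E10 counts of Fosb were uneven, with 20 in replicate 1 of 10 µm and 0 in replicate 1 of 50 µm. Without replicate 1 of 10 µm the ratio was 4.18-fold. In the single fit of later against E10 libraries described below, the 95% interval of Fosb was -9.94 to -1.46 on the log2 scale. It was not called there (edgeR adjusted p = 0.102).

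Hspa1a and Hspa1b lie side by side on chromosome 17, and their transcripts are 99.2% identical over 2201 aligned bases, differing in their 3′ ends (770 and 603 bases beyond the alignment). How the counting shared reads between them is not given in the sources used here, so the split between the 2 genes is uncertain. Hspa1a reached at most 1.32 CPM and Hspa1b at most 1.85. Their sum ranged from 0 (E10, 25 µm) to 2.91 CPM (E10, 50 µm, replicate 1), with a median of 2.03. Heat-inducible HSP70 transcripts were therefore present at up to 2.91 CPM in 10 of the 11 libraries.

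At the level of pixels the genes were sparse. Jun was detected in 5.83% to 43.4% of tissue pixels, with at most 8 counts in a pixel, and the highest shares were in the deep 50 µm libraries. When every pixel was cut down at random to 1000 counts and pixels with fewer were dropped, the shares for Jun drew together to 3.35% to 7.48%. In the thinned pixels of the E12 library, Jun was seen in 5.10%, Ier2 in 2.29% and Egr1 in 1.44%.

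To ask whether stage or pixel width changed these genes, counts summed over tissue pixels were compared with edgeR's quasi-likelihood test across 18233 genes. Of the 10 genes, 9 passed the filter on low values. Hspa1a did not, since its highest level in a library, 1.32 CPM, was too low, and Fosb passed through its E10 level alone (at most 1.67 CPM). None passed an adjusted p of 0.05 in any of the 6 comparisons. Between E11 and E10 at 10 µm, 0 of 9 passed, against 3.33% of all genes tested. Between E11 and E10 at 25 µm, 0 of 9 passed (0.455% of all genes). None passed either for 10 against 50 µm at E10 (0.11%), 10 against 25 µm at E11 (2.07%), E12 against E10 at 50 µm (2.14%) and the difference of the stage change between 25 and 10 µm (0.137%). Fosb, with 0 counts in all 4 E11 libraries, gave no usable value for the widths at E11 or for the difference of the stage change. At an unadjusted p under 0.05 there were 2, 2, 0, 1, 1 and 1 genes in that order, against 20.2%, 13.8%, 10.8%, 11.5%, 14.4% and 8.44% of all genes. DESeq2 likewise called 0 of the members in all 6.

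The median fitted log2 fold change of the members tested was -0.93 between E11 and E10 at 10 µm (3 of 9 above 0), where that of all genes was -0.01. With Fosb, which had 0 counts at E11, set at its floor of 3 counts, the median was -0.72. At 25 µm Fos and Hspa1b had no count in the E10 library and lay under its floor at E11, and the median of the other 7 members, with Fosb at its floor, was -0.19 (2 of 7 above 0), against 0.08 for all genes. Between the widths it was -0.17 over 9 members at E10 and 0.04 over the 8 members with counts at E11, against -0.03 and -0.03 for all genes. Since the filter kept some members through 1 group alone, these medians are descriptions. Hspa1b measured 0.182 CPM (1 count in 2 libraries) in E11 sections of 10 µm against 1.67 ± 0.229 (SD, n = 2) at E10; edgeR gave an unadjusted p of 0.0268 and an adjusted p of 0.189. At 25 µm it had 0 counts in the E10 library, which allows up to 1.92 CPM, and 0.790 and 1.82 CPM at E11, both under that limit, so no direction could be read there. The test of the difference between these stage changes gave an adjusted p of 0.425 (edgeR).

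Dusp1 was lower at E11 than at E10 at both widths, without passing the test at either. At 10 µm the means were 2.98 and 7.24 CPM, a log2 fold change of -1.28 (SE 0.56; edgeR adjusted p = 0.227), and at 25 µm 4.31 and 15.4 CPM, a log2 fold change of -1.61 (SE 0.62; adjusted p = 0.274). E12 against E10 at 50 µm gave 4.92 and 9.71 CPM, a log2 fold change of -1.01 (SE 0.60; adjusted p = 0.496). These comparisons rest on separate libraries.

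A single fit of the 5 later against the 6 E10 libraries, with pixel width as a term, was added after these values had been seen, so its p is not independent of them. In it Dusp1 measured 3.90 ± 1.41 CPM (SD, n = 5) at the later stages and 9.83 ± 3.63 (SD, n = 6) at E10, a log2 fold change of -1.28 (95% interval -1.998 to -0.559; edgeR adjusted p = 0.0366). In this fit 6.92% of all genes were called, 2.41% lower at the later stages, and 2.42% of all genes had every later library below every E10 library, as Dusp1 did. The direction held in all 11 fits that left out 1 library, with log2 fold changes from -1.42 to -1.15, and the call held in 4 of them. It was lost without replicate 1 (adjusted p = 0.0555) or 2 (0.0877) of E10 at 10 µm, the E10 library of 25 µm (0.132), replicate 1 (0.0706) or 3 (0.079) of E10 at 50 µm, replicate 1 of E11 at 25 µm (0.0742), or the E12 library (0.0621). The other 8 members tested were not called.

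Fewer cells of a type and less RNA per cell cannot be told apart in such sums, and the sections held different tissues. All 7 neuron markers were detected in every library, and their sum ranged from 639.9 to 2720 CPM at E10 and from 155 to 747 at the later stages. The neural progenitor markers, again 7 of 7, ranged from 655 to 2011 CPM and from 120 to 1000. The liver markers, of which 3 to 6 of 8 were detected at E10 with Fgb at 0 in all 6 libraries, ranged from 8.25 to 137 CPM at E10 and from 59.1 to 3817 later. Their part in the Dusp1 difference was not tested.

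The high Egr1 level at E12 gave a log2 fold change of 1.61 against E10 at 50 µm (95% interval 0.01 to 3.21), with 14.5 CPM in the single E12 library and 4.52 ± 3.10 (SD, n = 3) at E10; the unadjusted p was 0.0487 and the adjusted p 0.343 (edgeR). The call depended on how the E10 libraries were treated. Of the E10 libraries, replicate 1 of 10 µm and replicate 2 of 50 µm have titles of another form, ending in t, and no antibody library; the labels do not say what the form means. With a term for that form, which was added later with the values known, the fold change was 2.44 on the log2 scale and passed (adjusted p = 0.0231), and with both libraries left out it was 2.42 (adjusted p = 0.0682). The E12 section also differed from the E10 sections in its tissues. Red cell markers summed to 89594 CPM against 16540 to 32828 at E10, with 9 of 9 detected in every library. Liver markers summed to 3638 CPM against 8.25 to 137, and mesenchyme and cartilage markers (7 of 7 detected) to 3732 against 1064 to 2356. Macrophage markers, at 127 CPM against 42.9 to 75.8, and epithelial markers, at 109.8 against 32.6 to 106, were also above their E10 range, and neural progenitor markers, at 378 CPM against 655 to 2011, were below it. The part of these tissues in the Egr1 level was not tested.

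Those same 2 E10 libraries held the highest E10 levels of Fos, at 2.75 and 2.03 CPM, and of Egr1, at 5.58 and 8.10 CPM. They were compared with the other 3 E10 libraries of the same widths in a further fit chosen after the values had been seen. Egr1 was higher by 1.81 on the log2 scale (SE 0.43; unadjusted p = 0.00112, adjusted p = 0.368, edgeR) and ranked 50 of 18233 genes by p. Fos (1.72), Fosb (2.17) and Jun (0.52) were above 0 too, while Ier2 (-0.37) and Dusp1 (-0.57) were below. None of the 9 members passed, against 0.00548% of all genes.

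Beyond the members, 45 other immediate early genes were listed, of which 39 could be tested. Of these, 0 were higher and 2 lower between E11 and E10 at 10 µm, where 3.33% of all genes were called: Zfp36l1, which destabilises AU-rich mRNAs (49.5 against 156 CPM, log2 fold change -1.67, SE 0.36, edgeR adjusted p = 0.0264), and the zinc finger factor Klf6 (36.7 against 92.6 CPM, -1.35, SE 0.33, adjusted p = 0.0435). The median of the list was -0.18, against -0.01 for all genes. At 25 µm none passed, against 0.455% of all genes. The call of Zfp36l1 was lost without any 1 of the 4 libraries of 10 µm (edgeR adjusted p of 0.0694 to 0.119). That of Klf6 was lost without replicate 1 of E10 at 10 µm (0.237), replicate 1 (0.0559) or 3 (0.0681) of E10 at 50 µm, or any 1 of the 4 E11 libraries (0.0536 to 0.154).

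Between the widths at E11, the antiproliferative gene Btg1 was lower at 10 µm (49.9 CPM) than at 25 µm (192 CPM; log2 fold change -2.08, SE 0.35, edgeR adjusted p = 0.0101), 1 of 39 tested against 2.07% of all genes. At E12 the Kruppel-like factor gene Klf4 was higher than at E10 (42.6 against 8.38 CPM, log2 fold change 2.30, SE 0.46, adjusted p = 0.023), again 1 of 39, against 2.14% of all genes. Klf4 lay between 4.17 and 11.6 CPM in the other 10 libraries. Its call was lost without any 1 of the 3 E10 libraries of 50 µm (adjusted p of 0.0552 to 0.101) or without either E11 library of 25 µm (0.0505 for both), and that of Btg1 without replicate 2 of 10 µm (0.0731) or replicate 1 of 25 µm (0.0725). Genes of the list that neurons induce with activity differed widely in counts over all libraries: Egr3 had 0, Egr2 11, Npas4 15 and Arc 29, whereas Nr4a2 had 1372 and Homer1 2273. These examples were chosen after their values were seen.

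Of the 10 genes of the integrated stress response, in which ATF4 raises amino acid synthesis genes, 0 passed between E11 and E10 at 10 µm (3.33% of all genes) or at 25 µm (0.455%). The median log2 fold change of the list was 0.78 at 10 µm (9 of 10 above 0), against -0.01 for all genes, and 0.44 at 25 µm (7 of 10 above 0), against 0.08. At an unadjusted p under 0.05 (edgeR) there were 3 of 10 at each width, against 20.2% and 13.8% of all genes. For E12 against E10 the median was 0.15 (8 of 10 above 0), against -0.04 for all genes. Between the widths it was -0.40 at E10 (1 of 10 above 0) and 0.21 at E11 (7 of 10 above 0), against -0.03 for all genes in both. Asparagine synthetase, Asns, passed at E12 (70.0 against 25.6 CPM, log2 fold change 1.41, SE 0.31, edgeR adjusted p = 0.0334), 1 of 10 against 2.14% of all genes, but not without any 1 of the E10 libraries of 50 µm (adjusted p up to 0.128). Atf4 itself measured 66.5 CPM at E12, within its range of 53.4 to 134 at E10.

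Among 28 chaperones and heat shock factors, 27 were tested, and the gene with the largest called change was Hspa8, which encodes the constitutive HSP70 relative HSC70. Hspa8 measured 511 and 613 CPM (E10, 10 µm), 861 (E10, 25 µm) and 397, 364 and 609 (E10, 50 µm), but 177 and 192 (E11, 10 µm), 64.5 and 76.2 (E11, 25 µm) and 47.1 (E12). Every later library was below every E10 library, as for 2.42% of all genes tested. Hspa8 was the only gene of this list called at 25 µm (log2 fold change -3.40, SE 0.37, edgeR adjusted p = 0.00116) and at E12 (-3.31, SE 0.45, adjusted p = 0.00245), 1 of 27 against 0.455% and 2.14% of all genes. At 10 µm it was called together with Hspa4l, a co-chaperone of the HSP110 family: -1.63 (SE 0.32, adjusted p = 0.0162) for Hspa8 and -1.26 (SE 0.29, adjusted p = 0.0351) for Hspa4l, 2 of 27 against 3.33% of all genes. Hspa4l was no longer called without any 1 of the 4 libraries of 10 µm or the 3 E10 libraries of 50 µm (adjusted p of 0.0508 to 0.192). At 10 µm, Hspa8 was no longer called without replicate 2 of E10 (0.0942) or either replicate of E11 (0.057 and 0.0889).

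Hspa8 has many processed pseudogenes, to which reads of the gene can be assigned. The annotation held 13 pseudogenes that resembled the Hspa8 transcript at 85% identity or more over at least 300 bases, and 11 of them had a column. Their summed level was 4.48 to 29.8 CPM in the 6 E10 libraries and 42.2 to 202 in the 5 later ones. Summed with these pseudogenes, an alternative chosen after seeing the data, Hspa8 was lower at E11 than at E10 by a log2 fold change of -0.74 at 10 µm (edgeR adjusted p = 0.219), -2.58 at 25 µm (adjusted p = 0.0104) and -2.43 at E12 (adjusted p = 0.0142). The call at 10 µm was thus lost, and the summed level of 393 CPM in replicate 2 of E11 at 10 µm was above the 378 CPM of replicate 2 of E10 at 50 µm. Over all genes, pseudogenes took 6.36% to 10.6% of counts at E10 and 5.98% to 14.0% later. How reads that fit several copies were counted is not given in the sources used here, and the part of that choice in the Hspa8 difference was not tested.

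**Figure D2:**
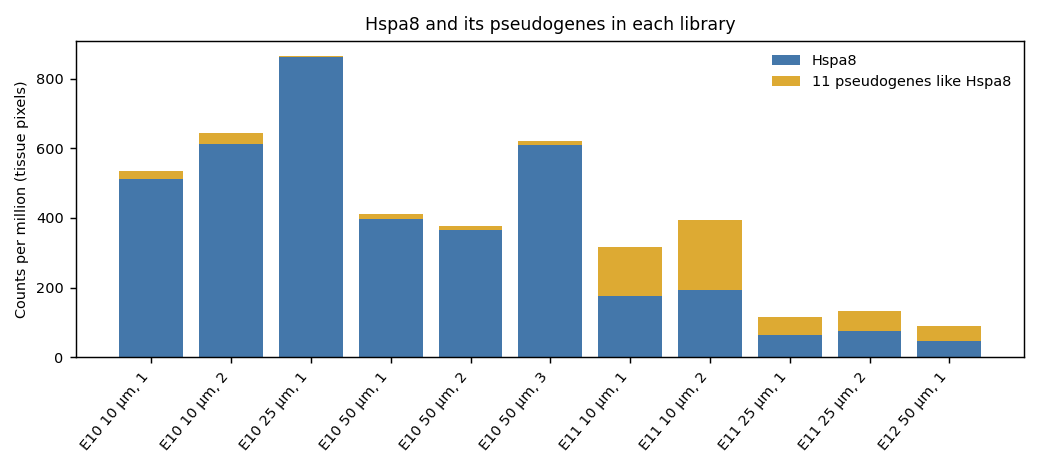
CPM of Hspa8 (blue) and of 11 pseudogenes like it (yellow, stacked on top) in each of the 11 libraries, named by stage, pixel width and replicate. Hspa8 alone lay between 364 and 861 CPM at E10 and between 47.1 and 192 CPM at E11 and E12, while the pseudogenes were at most 29.8 CPM at E10 and at least 42.2 CPM later.

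Other chaperones differed in how far they varied. Hspa5, the chaperone of the endoplasmic reticulum, ranged from 584 to 1111 CPM and heat shock factor Hsf1 from 13.8 to 24.9 CPM with E10 and later libraries overlapping. The small heat shock protein genes Hspb1 and Cryab ranged more widely, from 1.89 to 54.3 CPM and from 4.28 to 49.2 CPM, again with overlap. The medians of the 27 tested chaperones were -0.05 at 10 µm and 0.23 at 25 µm between E11 and E10, against -0.01 and 0.08 for all genes.

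Where in the section the members lay was described with Moran's I, which is near 0 when neighbouring pixels are no more alike than distant ones and near 1 when they are nearly the same. It was read only for genes detected in 5% of tissue pixels. Jun met this in all 11 libraries, Ier2 in 8, Dusp1 in 3 and Egr1 in 2, and the other 6 members in none. Moran's I of Jun ranged from -0.001 to 0.105 (median 0.045) and was above the median gene of the same library in 9 of 11. The highest value, 0.105 in E10 replicate 2 of 50 µm, was above 89.6% of the 11615 genes read there, and in E12 Jun (0.078) was above 87.3%. Ier2 ranged from 0.00047 to 0.055 and exceeded the median gene in 3 of 8 libraries. Egr1 reached 0.050 in E10 replicate 2 of 50 µm and 0.036 in E12. Dusp1 was between -0.028 and 0.005, so neighbouring pixels were hardly more alike for it than distant ones. The most structured genes of each library reached 0.394 to 0.774, and since depth and pixel width differ between libraries, values are compared within a library only.

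**Figure D3:**
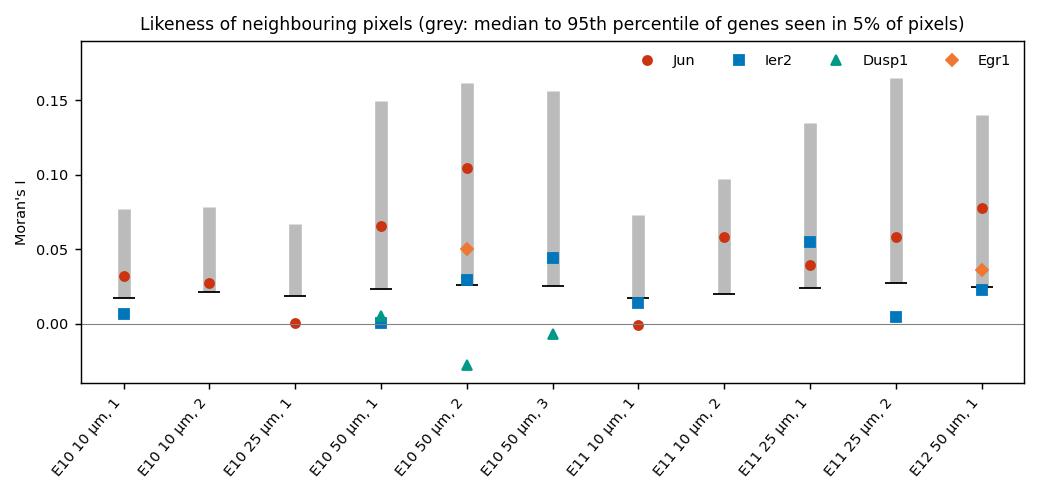
Moran's I (vertical axis) of Jun, Ier2, Dusp1 and Egr1 in each library where the gene was detected in 5% of tissue pixels. Grey bars run from the median (black line) to the 95th percentile of all genes so detected in that library. Jun lay above the median in 9 of the 11 libraries and below the 95th percentile in all.

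**Figure D4:**
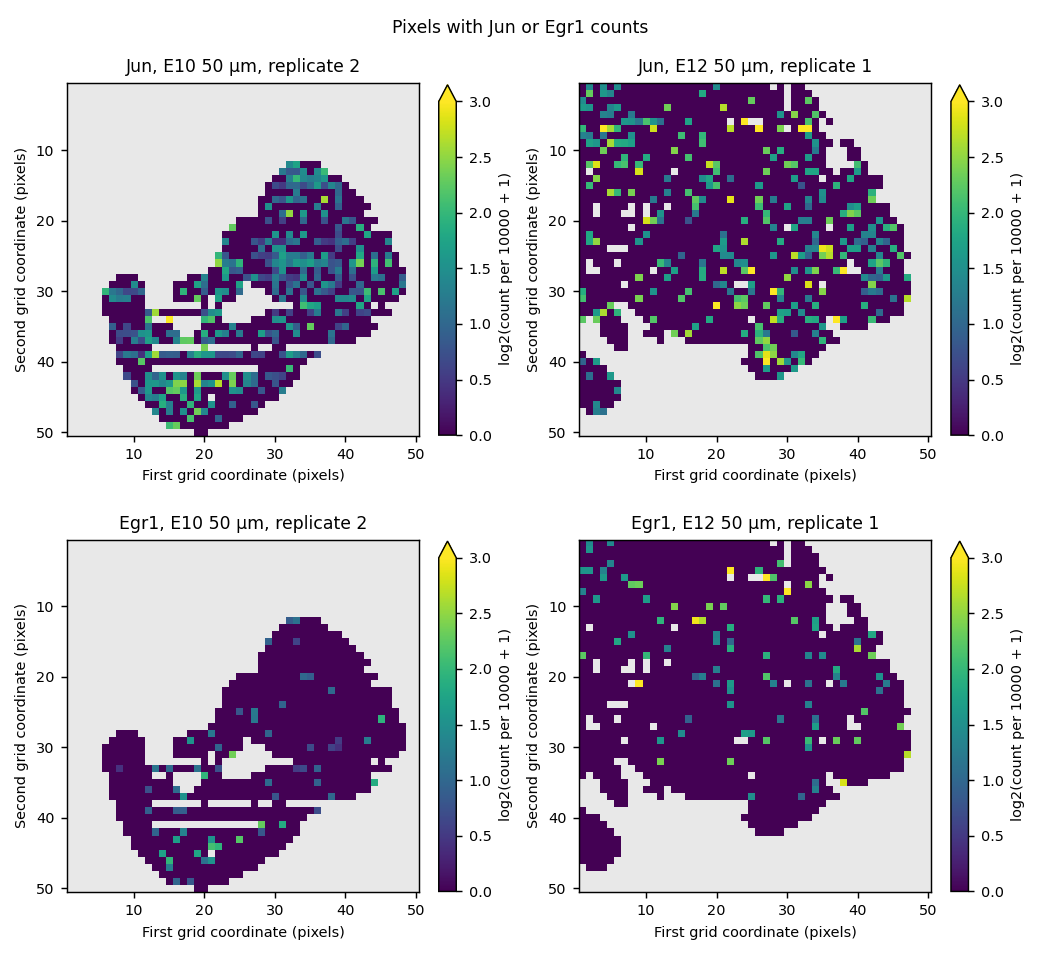
Tissue pixels of E10 replicate 2 of 50 µm (left) and of the E12 library (right) on the grid of 50 by 50 channels, coloured by log2(count per 10000 + 1) of Jun (top) or Egr1 (bottom); grey pixels are below the tissue minimum. Jun was detected in 39.7% and 19.2% of the pixels, with denser patches in both sections, and Egr1 in 7.36% and 5.86%.

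The pixels were then grouped by tissue, using marker lists for 10 cell types. For each list, the 10% of tissue pixels with the highest marker level were set against the remaining pixels of the same library, and the log2 ratios were tested over libraries with an exact two-sided sign-flip permutation test, adjusted over 100 pairs of gene and list. In all, 3 pairs passed, Fosb with red cell markers and Fosb and Hspa1a with mesenchyme and cartilage markers. These are the genes with the fewest counts, and 0.5 had been added to both pixel classes, which lifts the ratio where a library holds no count. When the added count was shared in proportion to the classes' total counts, a variant added later with the values known, 0 of 100 passed. The values below are therefore descriptions: counts found in marker-rich pixels, summed over libraries, against the counts expected if the gene followed the pixel totals. In red cell pixels Fosb had 10 against 2.90 (ratio 3.45, 95% Poisson interval 1.66 to 6.35), with more than expected in 4 of 11 libraries. In mesenchyme and cartilage pixels Fosb had 4 against 2.28 (ratio 1.75, interval 0.478 to 4.49), with more than expected in 2 of 11. Hspa1a had 8 there against 3.24 (ratio 2.47, interval 1.07 to 4.86), with more than expected in 6 of 11.

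Egr1 and Atf3 had more counts in heart muscle pixels than their totals there gave. In the 9 libraries with enough heart markers, 58 Egr1 counts lay in those pixels where 28.6 were expected (ratio 2.03, 95% Poisson interval 1.54 to 2.63), with more than expected in 8 of 9 libraries. For Atf3 the numbers were 30 and 10.6 (ratio 2.84, interval 1.92 to 4.05; 7 of 9 libraries). The adjusted p of the exact test was 0.0651 for Egr1 and 0.0868 for Atf3, and 0.481 and 0.574 with the proportional count. Leaving out any 1 library moved the Egr1 ratio to between 1.86 and 2.23 and that of Atf3 to between 2.59 and 3.02. Fos had 17 counts there against 7.92 expected, a ratio of 2.15 that was 1.33 without replicate 1 of E10 at 10 µm. Jun (1.05) and Ier2 (1.14) followed the pixel totals in heart pixels.

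In endothelial pixels, Junb had 26 counts against 11.1 expected (ratio 2.33, interval 1.52 to 3.42), more than expected in 8 of 8 libraries (exact adjusted p = 0.0868, or 0.293 with the proportional count). Egr1 had 45 against 23.9 there (ratio 1.88, interval 1.37 to 2.52; 7 of 8 libraries; exact adjusted p = 0.203, and up to 0.879 under alternative settings). Junb also exceeded its expected counts in red cell pixels (25 against 15.1, ratio 1.66, interval 1.07 to 2.45; 9 of 11 libraries). The same held in liver pixels (25 against 14.8, ratio 1.69, interval 1.10 to 2.50; 4 of 6 libraries). The exact adjusted p of Junb was 0.0868 in red cell pixels and 0.528 in liver pixels. Dusp1 had more counts than expected in neuron-rich pixels, 86 against 54.3 (ratio 1.58, interval 1.27 to 1.96; 9 of 10 libraries; exact adjusted p = 0.0651, or 0.574), and Ier2 had fewer there (163 against 205, ratio 0.796; exact adjusted p = 0.0868, or 0.293). The excess of Dusp1 was nearly as large in endothelial pixels (53 against 35.9, ratio 1.48, interval 1.11 to 1.93; 6 of 8 libraries) and in red cell pixels (68 against 46.3, ratio 1.47, interval 1.14 to 1.86; 10 of 11 libraries), with exact adjusted p of 0.260 and 0.115. Ier2 was as low in neural progenitor pixels (166 against 219, ratio 0.759, interval 0.648 to 0.884) and in liver pixels (111 against 139, ratio 0.797, interval 0.656 to 0.960). It had more counts than expected in 3 of 10 and 1 of 6 libraries there, with exact adjusted p of 0.291 and 0.353.

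Jun had fewer counts than expected in liver-rich pixels, 120 against 204 (ratio 0.589, interval 0.488 to 0.704; fewer than expected in 5 of 6 libraries), and more in mesenchyme and cartilage pixels, 308 against 232 (ratio 1.33, interval 1.18 to 1.48; 10 of 11 libraries above). The gap in liver pixels was widest in the E11 libraries of 25 µm, where 7 counts were found against 20.7 expected and 8 against 33.0, and at E12 (20 against 53.8). In the E10 libraries of 50 µm, where the liver list was sparse, it was 35 against 40.7 and 35 against 34.5. The exact tests gave adjusted p of 0.169 for liver, where 6 libraries allow no raw p below 0.0313, and 0.188 for mesenchyme. Jun also had fewer counts than expected in red cell pixels (242 against 300, ratio 0.806, interval 0.708 to 0.915), with more than expected in 3 of 11 libraries (exact adjusted p = 0.188).

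**Figure D5:**
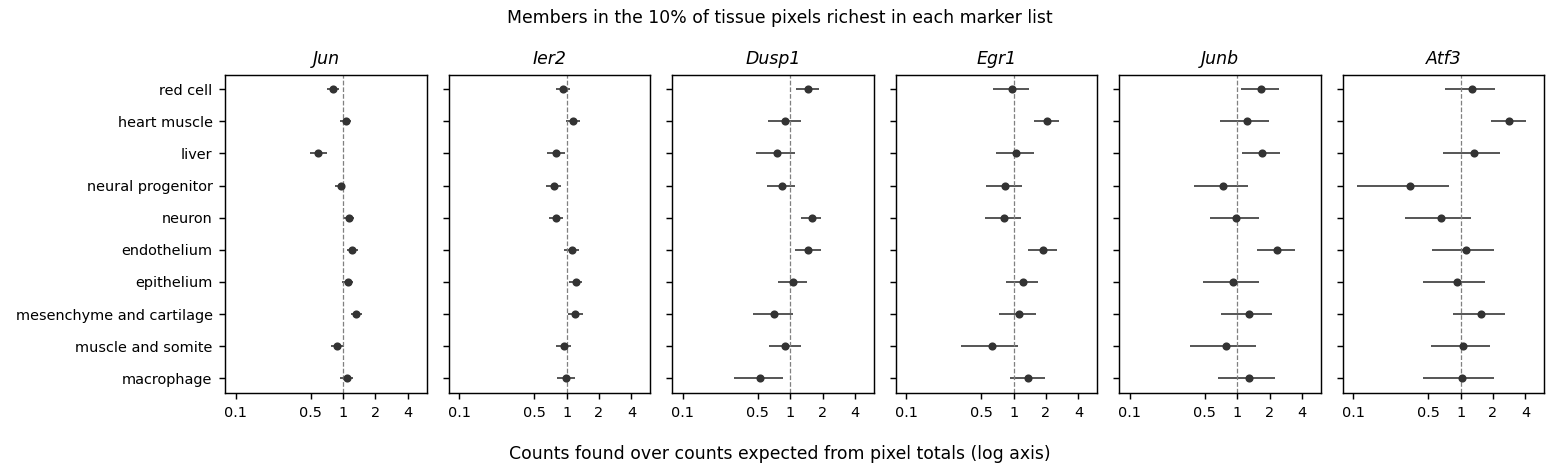
Counts found over counts expected (log axis) for 6 members in the 10% of tissue pixels richest in each of 10 marker lists, summed over libraries, with 95% Poisson intervals that cover counting error only. Egr1 (2.03) and Atf3 (2.84) were highest in heart muscle pixels, Junb (2.33) in endothelial pixels and Dusp1 (1.58) in neuron pixels, and Jun was lowest in liver pixels (0.589).

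Pixels at the border of the tissue were also compared with inner pixels. As designed, Fos, Fosb and Hspa1a passed the exact sign-flip test (adjusted p 0.013, 0.00977 and 0.013 over 10 genes), and with the proportional added count none did. In counts, Fos had 21 at the border against 16.3 expected (ratio 1.29, interval 0.799 to 1.97), Fosb 13 against 7.52 and Hspa1a 13 against 7.80. Egr1 had 86 against 56.9 (ratio 1.51, interval 1.21 to 1.87; 8 of 11 libraries; exact adjusted p = 0.0903, or 0.864 with the proportional count). Jun (1.03) and Ier2 (1.05) were as frequent at the border as inside. Border pixels were also shallower, with median totals below those of inner pixels in all 11 libraries.

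The genes whose counts were distributed most like each member were found over blocks of 5 by 5 pixels, as the mean over the 11 libraries of Pearson's r of residuals from the block totals, among 9671 genes at most. For Jun they were Tmsb10 (mean r 0.322), Foxp1 (0.284) and Vcan (0.276). For Egr1 they were Col4a1 (0.223), Hspg2 (0.201) and then Mmrn2. For Ier2 they were Mdk (0.240), Fzd2 (0.230) and Farp1 (0.223), and no gene exceeded 0.128 for Dusp1. Blocks of a library share its depth and channels, and these weak correlations are descriptions. Among the 4 members themselves, mean r lay between -0.032 and 0.089. In single libraries it ran from -0.222 (Jun with Ier2) to 0.462 (Egr1 with Jun). Some libraries held very few counts, such as 5 of Egr1 in each E11 library of 10 µm, where a shared pattern could hardly be seen. The means therefore cannot show whether Egr1, Jun, Ier2 and Dusp1 shared their blocks.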

How the data were processed

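Transcripts were counted in 11 libraries; 4 antibody libraries were not used. The authors deposited whole-number counts per gene and pixel without normalization. The submitters' processing notes name CASAVA 1.8.2 and GRCh38, a human build; the aligner, the build behind the mouse counts, the use of strand and the collapsing of duplicates are not given in the sources used here. In the files with all 2500 pixels no column lacked a count, so a missing column was read as 0; this concerned 10 member values. Tissue pixels are those whose total reached 0.1 of the library's 95th percentile of totals. Counts summed over tissue pixels were tested with edgeR 4.0.16 (R 4.3.3, limma 3.58.1): TMM scaling, filterByExpr at its defaults, 6 group means on 11 libraries with 5 residual degrees of freedom and Benjamini-Hochberg adjustment over all genes tested (threshold 0.05). P-values are two-sided. DESeq2 1.42.0 was an alternative, as were other scalings, filters, tissue minimums and left-out libraries. Marker lists with a median of fewer than 2 counts in the top pixels of a library were not used there. Moran's I used 4 neighbours and log2(count per 10000 + 1). Genes are named where they are members, where they are of a pathway list and passed the test (at most 6 per list and comparison), or where they were most alike in blocks, for members with at least 200 counts; Egr2, Egr3, Npas4, Arc, Nr4a2, Homer1, Atf4, Hspa5, Hsf1, Hspb1 and Cryab were named after their values were seen. Members and lists were chosen with earlier results of these data known. The edgeR count test and Moran's I were tested on simulated data, and the sign-flip test was checked on a fixed set of values. Libraries of a group differed by 24.6 to 70.0 times the degrees of freedom in a chi-square test, so no library was a copy. Positions are from GENCODE M21 and RefSeq (GRCm38.p6) and lengths from GENCODE M21. Analyses used Python 3.11.15.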

Additional observations from a re-analysis of the deposited data

How the results depend on the processing

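No member was called in any of the 6 comparisons under other size factors, DESeq2, no filter on low counts, every pixel, a tissue minimum of 0.2, Hspa1a and Hspa1b summed, or without any 1 library; the count became 1 (Egr1, E12 against E10) with a term for the form of the title. With the replicate number of the E11 libraries as a block, 0 members were called and the counts of genes over all were 585 in place of 608 (E11 against E10, 10 µm), 81 for 83 (25 µm), 0 for 20 (E10 widths), 297 for 378 (E11 widths), 349 for 390 (E12) and 21 for 25 (change between stages). Deviations of same-numbered libraries correlated at 0.0565. Because the sections held different tissues, this value cannot tell whether same-numbered libraries share an embryo or a run. Mitochondrial genes took 0.555% (10 µm) and 0.629% (25 µm) of counts in the E11 replicates 1. In the E11 replicates 2 they took 1.36% and 2.78%. The block changed 1 other call, that of Klf6 (adjusted p = 0.0502). DESeq2 called 968, 388, 413, 561, 520 and 118 genes in that order, and no filter 1835, 671, 731, 870, 1328 and 223. Of 53 fold changes of the members, 31 kept their sign under every alternative and 22, near 0 or of few counts, did not. The 31 include those of Fosb at the later stages against E10 and of Fos and Hspa1b between stages at 25 µm. There a group with 0 counts all but fixed the sign. Tests past the threshold in marker-rich pixels were 3 as designed, 5 for the top 20% of pixels, 0 with the proportional added count and 0 to 5 without 1 library; at the border they were 3 as designed, 1 with the tissue minimum of 0.2, 0 with the proportional added count and 3 to 4 without 1 library. The border log2 ratio of Ier2 turned from -0.09 to 0.14 with the tissue minimum of 0.2 and ran from -0.15 to 0.059 without 1 library, and that of Jun from -0.0103 to 0.163. Without 1 library the log2 fold change of Dusp1 at the later stages ran from -1.42 to -1.15. Median Moran's I of Jun was 0.042 to 0.064 and that of Ier2 0.022 under the alternatives. Depth limits Fos, Fosb, Hspa1a and Hspa1b most, which held 39 to 101 counts in 11 libraries.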
